A study of Mus musculus with 16 samples.

Results

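Ribosome biogenesis and MYC target genes were followed in mouse pre-B cells that carried or lacked the BCR-ABL1 fusion and had or lacked SHP2. The 38 genes were picked by symbol from the gene table. All 38 were found among the 23279 symbols left after entries of a repeated symbol were summed. All 38 also passed the filter on low values that left 10210 genes for testing. They comprise 2 nucleolar organisers, 5 genes of small nucleolar ribonucleoproteins (snoRNPs), 3 of the RNA polymerase group, 6 for the small and 8 for the large ribosomal subunit, 8 for nucleotide and polyamine synthesis, and 6 other MYC targets.

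Ribosomes are built in the nucleolus. RNA polymerase I transcribes the ribosomal RNA precursor, snoRNPs guide its methylation and pseudouridylation, and separate sets of assembly factors process the small and the large subunit, while RNA polymerase III makes the 5S RNA. MYC, a transcription factor that binds E-box DNA with its partner MAX, is known to drive many of these genes together with the enzymes that supply nucleotides and polyamines to growing cells. In B-cell precursors this programme accompanies the proliferation of large pre-B cells.

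The 16 libraries form 4 groups of 4, each numbered 0 to 3 in the labels. All are labelled as pre-B cells, the B-cell precursors that have rearranged an immunoglobulin heavy chain gene. The genotypes are BCR-ABL1 with SHP2 wild type (+/+), BCR-ABL1 with SHP2 null (-/-), no BCR-ABL1 with SHP2 wild type, and no BCR-ABL1 with SHP2 null. BCR-ABL1 is the constitutively active tyrosine kinase of Philadelphia chromosome leukaemias, and SHP2, encoded by Ptpn11, is a tyrosine phosphatase that promotes RAS and ERK signalling. How SHP2 was deleted, how BCR-ABL1 was introduced, the age and strain of the mice and whether libraries come from separate animals or cultures were not given by the labels, nor was any drug or other agent. The p-values therefore measure only the spread between these libraries, which may be technical.

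Because MYC binds E-box DNA, the reference promoters (RefSeq, GRCm38.p6, 250 bases before to 50 after a start) were searched for the E-box CACGTG. This palindrome reads the same on both strands, and no other motif was searched. Of the 33 members with a promoter entry 10 held it (30.3%), against 12.6% of the 7632 tested genes with an entry and 8.09% of all 27025 genes with one. Npm1, Fbl, Rrp12, Srm and Bop1 had no entry. The boxes that lie before a start are shown with 12 bases on each side, 5′ to 3′ on the gene's strand, with the box in capitals. A match describes the letters in the window and is neither a binding site nor a cause.
Eif4e, 228 bases before the start, chr3:138527028-138527057, plus strand: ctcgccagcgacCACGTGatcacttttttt
Eif4e, 64 bases before the start, chr3:138527192-138527221, plus strand: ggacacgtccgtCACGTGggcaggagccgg
Ran, 118 bases before the start, chr5:129020026-129020055, plus strand: gctcggccggccCACGTGacccgccgcccc
Impdh2, 110 bases before the start, chr9:108560314-108560343, plus strand: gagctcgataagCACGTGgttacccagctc
Hspd1, 80 bases before the start, chr1:55088306-55088335, minus strand: ggccggctgggaCACGTGaaaaggccgcgc
Nme1, 29 bases before one start, chr11:93968037-93968066, minus strand: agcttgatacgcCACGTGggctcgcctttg
Nme1, 18 bases before another start, chr11:93968273-93968302, minus strand: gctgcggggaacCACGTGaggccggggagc
Apex1, 24 bases before the start, chr14:50924913-50924942, plus strand: gcgctccagaacCACGTGggggcggagccc
Apex1 held another 2 boxes at and after its start, and Utp20, Pes1, Mybbp1a and Wdr43 held their box after it. Hspd1 and Hspe1, which encode the subunits of the mitochondrial chaperonin, lie head to head on chromosome 1 and their transcripts overlap at this region.

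Expression was deposited as FPKM, fragments counted per length of transcript and scaled to the library's size, so a level is relative to the library's other RNA and can be set against that of another gene per length. Ptpn11 read 15.7 to 18.0 FPKM in the 8 SHP2 wild-type libraries and 2.87 to 7.43 FPKM in the 8 null libraries. The 8 pre-B markers summed to between 1684 and 2150 FPKM in every library. Myeloid markers summed to at most 37.2 FPKM, apart from 421 FPKM in replicate 2 of the SHP2-null cells without BCR-ABL1, where Lyz2 alone read 403 FPKM. By group, these sums were 7.33 to 30.3 FPKM in wild-type and 6.88 to 421 FPKM in null libraries without BCR-ABL1. With BCR-ABL1 they were 3.14 to 18.1 FPKM and 2.22 to 8.51 FPKM. S100a8 was instead higher with BCR-ABL1, at medians of 2.33 FPKM in wild-type and 1.40 FPKM in null libraries. Without it the S100a8 medians were 0.228 and 0.386 FPKM. Markers of T, NK, erythroid and stromal cells summed to at most 3.24 FPKM, and mast cell markers to between 0.246 and 12.1 FPKM. The sum of the 4 mast cell markers moved with genotype, at 6.70 to 11.7 FPKM in wild-type and 0.246 to 12.1 FPKM in null libraries that lacked BCR-ABL1. With BCR-ABL1 they summed to 1.01 to 3.20 FPKM in wild-type and 0.781 to 2.29 FPKM in null libraries, where Cma1 and Mcpt4 were listed at 0 in all 8. Kit went the other way. Its medians were 0.527 FPKM in wild-type and 0.749 FPKM in null libraries without BCR-ABL1, and 1.53 and 1.13 FPKM with it. In bulk libraries, fewer cells of a type and less RNA per cell cannot be told apart.

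Every member was expressed in every library, over a wide range of levels. Npm1, nucleophosmin of the granular nucleolus, had by far the highest mean over the 16 libraries, 1290 FPKM, followed by Nme2, a nucleoside diphosphate kinase, at 373 FPKM, and Ran, the nuclear transport GTPase, at 259 FPKM. Polr3g, a subunit of RNA polymerase III, had the lowest at 6.92 FPKM and Rrp12, a small-subunit export factor, the next at 9.59 FPKM. The other 33 members had means between 16.8 FPKM for Rrp9, a protein of the U3 snoRNP, and 239 FPKM for Impdh2, which makes guanine nucleotides. Spreads were modest, with the highest library at most 2.45 times the lowest for any member, which was Ncl.

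**Figure D1:**
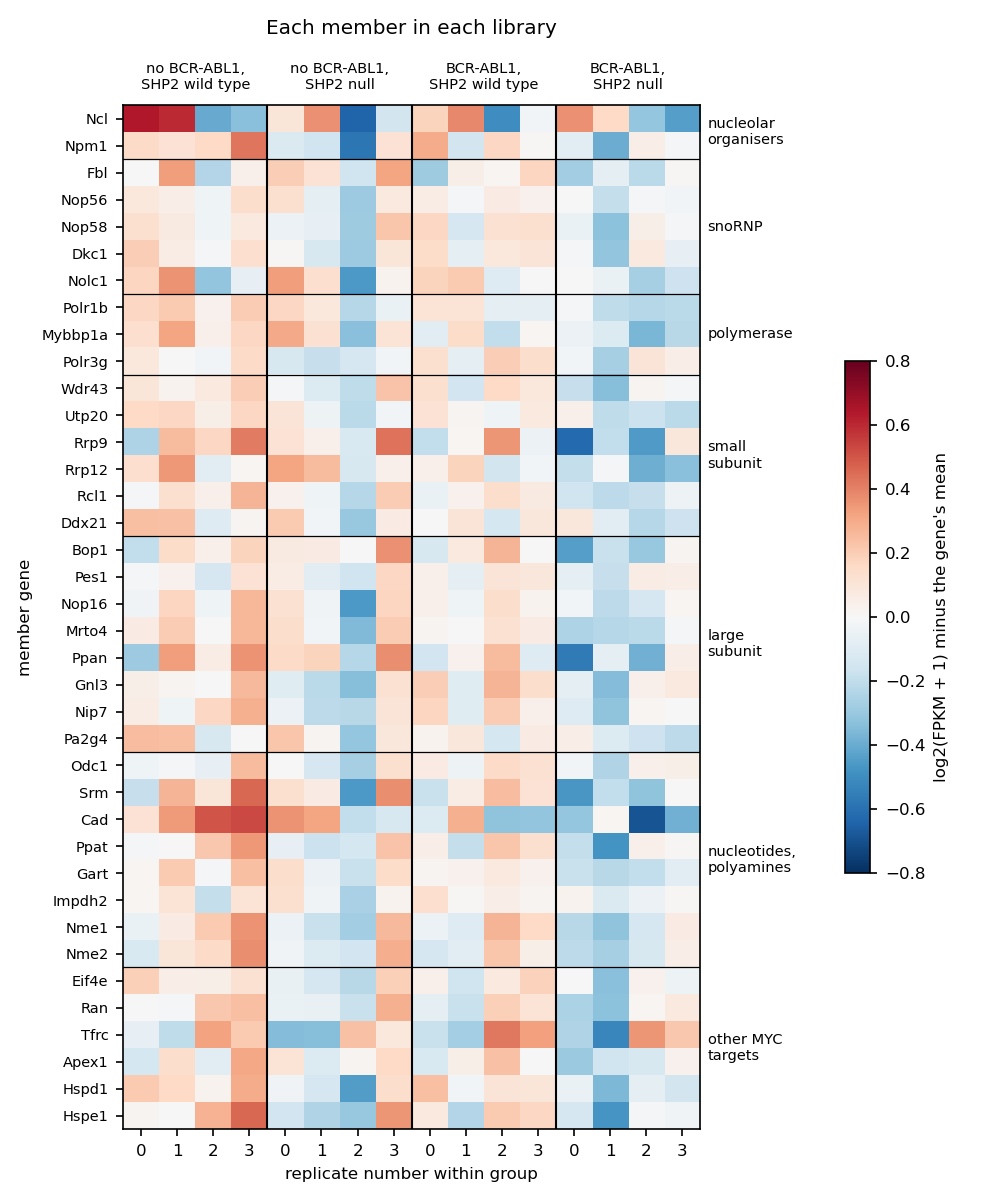
Each row is one of the 38 members, grouped by role, and each column one library with its replicate number; colour gives log2(FPKM + 1) minus the gene's mean over the 16 libraries. Replicate 2 of the SHP2-null cells without BCR-ABL1 is below the gene's mean for 36 of 38 members, and the BCR-ABL1 SHP2-null columns are mostly below it.

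Depending on the library, from 2 to 36 of the 38 members lay below their own mean. Averaged over the 38 genes as a deviation of log2(FPKM + 1) from each gene's mean, the wild-type BCR-ABL1 libraries 0 to 3 stood at 0.03, -0.01, 0.09 and 0.06 and the SHP2-null BCR-ABL1 libraries at -0.14, -0.22, -0.13 and -0.05. These 2 groups did not overlap. Without BCR-ABL1, the wild-type libraries stood at 0.05, 0.15, 0.03 and 0.21 and the null libraries at 0.06, -0.03, -0.25 and 0.15, so these groups overlapped and the null group had the widest spread (SD 0.17, n = 4). The mean of all 10210 genes tested, taken the same way, stayed between -0.04 and 0.04 in every library.

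**Figure D2:**
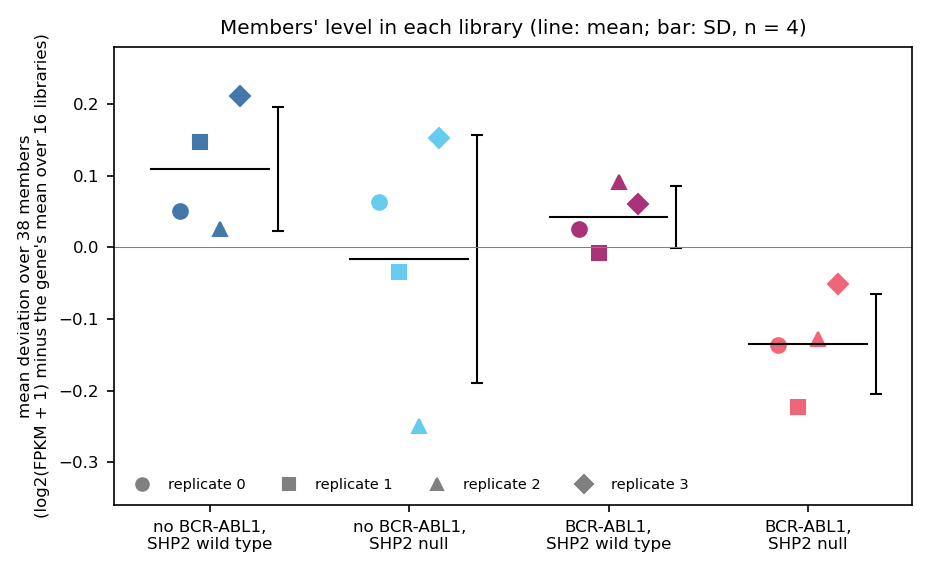
Mean deviation over the 38 members (log2 units) in each of the 16 libraries, by group, with marker shapes for replicate numbers, the group mean as a line and the SD (n = 4) as a bar. The 4 BCR-ABL1 SHP2-null libraries lie between -0.22 and -0.05, below the 4 BCR-ABL1 wild-type libraries at -0.01 to 0.09, while both groups without BCR-ABL1 overlap.

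Some members lay apart by replicate number within every genotype; these genes were singled out after their values were seen. Tfrc, the transferrin receptor that brings iron into growing cells, read 136 to 186 FPKM in the 8 libraries numbered 0 or 1 and 207 to 261 FPKM in the 8 numbered 2 or 3, and the split held within all 4 groups. Ncl, nucleolin of the nucleolus, went the opposite way, at 98.9 to 145 FPKM and 58.9 to 91.2 FPKM. Nolc1, a snoRNP chaperone, and Rrp12 split within all 4 groups in the same direction as Ncl, with ratios of medians of 0.80 and 0.82. With 1 member higher and 3 lower in libraries 2 and 3, against 6.55% and 7.27% of all genes tested, the members' share is near the background. Ncl and Tfrc had the largest standard errors of any member in the fit without the block, 0.28 and 0.21.

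**Figure D3:**
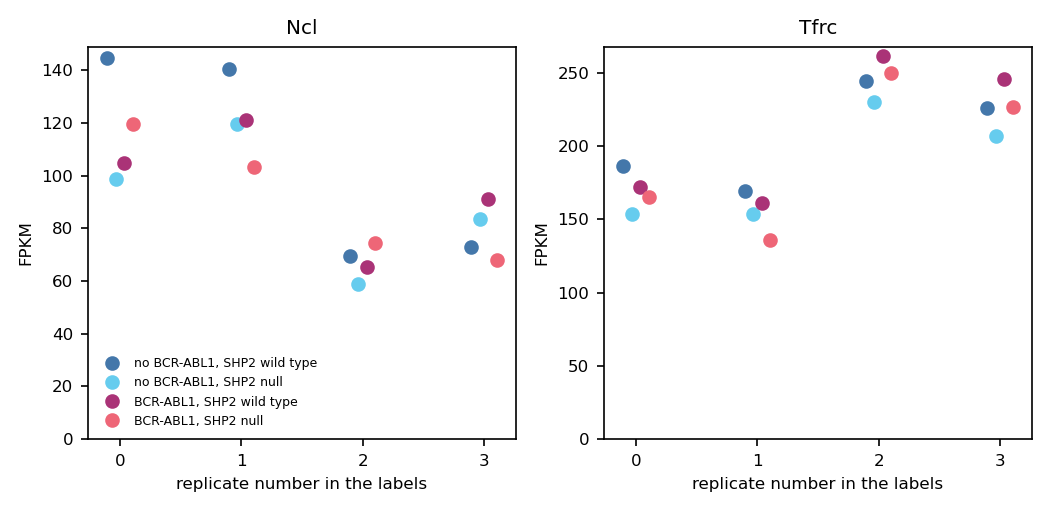
FPKM of Ncl and Tfrc in each library by the replicate number in the labels, coloured by group, 4 libraries per number. For Tfrc every library numbered 2 or 3 lies above every library numbered 0 or 1, and for Ncl every one lies below.

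The first comparison asks what SHP2 loss does to these genes in BCR-ABL1 cells. All 38 members had a lower mean of log2(FPKM + 1), the scale of the test, in SHP2-null than in wild-type BCR-ABL1 cells, against 57.3% of all genes tested. The median log2 change was -0.18 against -0.02 over all genes. Counts of lower and higher genes in the comparisons that follow are on this scale. In FPKM, the null group stood at 87.9% of the wild-type mean at the median member, within a range from 79.2% for Rrp9 to 95.5% for Ncl. No member passed limma's test at an adjusted p below 0.05 (Benjamini-Hochberg over the 10210 genes), where 0.313% of all genes did. At an unadjusted p below 0.05 there were 7 members lower and 0 higher, against 1.98% and 1.67% of all genes. With the replicate number as a block 16 members were under that limit, against 8.32% of all genes, and still none passed after adjustment, against 0.47%. The median half-width of a member's 95% interval was 0.25 log2 units, wider than most of these differences.

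Among nucleolar organisers and snoRNP genes in that comparison, no unadjusted p was below 0.05. Npm1 read 1563, 1149, 1426 and 1283 FPKM in the wild-type BCR-ABL1 libraries 0 to 3 and 1195, 965, 1317 and 1263 FPKM in the null ones. The groups overlapped, since the lowest wild-type library lay below 3 null libraries, and the log2 change was -0.19 ± 0.15 (SE, n = 4 per group). Nop56, a core protein of the methylating box C/D snoRNPs, read 173, 165, 174 and 170 FPKM and then 166, 145, 164 and 163 FPKM. Its lowest null library, replicate 1, stood apart from its 3 companions, and its change was -0.09 ± 0.09. Fbl, fibrillarin, the methyltransferase of the same particle, read 76.4, 96.0, 94.3 and 105 FPKM and then 76.5, 88.2, 79.9 and 93.9 FPKM, and here the lowest value belonged to a wild-type library.

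In the polymerase group Polr1b, a large subunit of RNA polymerase I, had the smallest p. It read 20.4, 20.4, 17.9 and 17.8 FPKM in wild-type BCR-ABL1 libraries, and 18.6, 16.2, 15.9 and 16.0 FPKM in the null group. Only null replicate 0 reached into the wild-type range, and the log2 change was -0.18 ± 0.09 (unadjusted p = 0.0480 in limma, adjusted p = 1.00). Mybbp1a, a nucleolar protein that binds MYB and takes part in rRNA processing, read 59.5, 70.0, 54.8 and 63.8 FPKM and then 61.0, 58.6, 48.9 and 54.0 FPKM, and these values overlapped.

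Subunit assembly factors held 4 of the 7 members with an unadjusted p below 0.05. For the small subunit these were Utp20, a component of the processome (-0.18 ± 0.08), and Rcl1, which acts in early pre-rRNA cleavage (-0.20 ± 0.09). Ddx21, a nucleolar RNA helicase, read 67.5, 72.2, 60.9 and 71.8 FPKM in wild-type BCR-ABL1 cells, and 71.6, 63.3, 57.2 and 59.8 FPKM in the null group, with overlap. For the large subunit they were Bop1, a partner of Pes1 in the complex that matures 28S rRNA, and Mrto4, a factor that holds the place of the stalk protein during assembly. Mrto4 read 47.2, 46.2, 50.7 and 48.7 FPKM in wild-type libraries, and 38.9, 39.5, 39.8 and 46.0 FPKM in the null group. Every null library thus lay below every wild-type library, although null replicate 3 did so only narrowly, and the change was -0.23 ± 0.10. Bop1 read 30.6, 35.5, 40.7 and 33.7 FPKM and then 24.5, 29.5, 27.1 and 34.1 FPKM, a change of -0.28 ± 0.12. Pa2g4, a growth-regulated binding protein of nucleolar particles, read 131, 137, 116 and 135 FPKM and then 133, 119, 114 and 111 FPKM.

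Among the metabolic members, Gart, a trifunctional enzyme of purine synthesis, had the smallest p of all 38 in this comparison. It read 56.7, 57.3, 59.1 and 57.1 FPKM in wild-type BCR-ABL1 libraries, and 49.3, 47.8, 48.6 and 52.4 FPKM in the null group. The groups were tight and separate, and the log2 change was -0.21 ± 0.08 with a 95% interval from -0.38 to -0.04 (unadjusted p = 0.0181, adjusted p = 1.00 in limma). Nme2 read 336, 348, 431 and 382 FPKM and then 320, 307, 339 and 384 FPKM, with overlap. Srm, spermidine synthase, and Odc1, the rate-limiting enzyme of polyamine synthesis, had log2 differences of -0.31 ± 0.17 and -0.12 ± 0.10, both with intervals that include 0.

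Of the other MYC targets, Hspd1, the mitochondrial HSP60 chaperonin, read 272, 226, 246 and 246 FPKM in wild-type BCR-ABL1 cells, and 221, 178, 217 and 208 FPKM in the null group. These groups did not overlap and the change was -0.26 ± 0.11. Ran, whose gene lies 7.89 Mb from Ptpn11 on chromosome 5, read 244, 227, 294 and 278 FPKM and then 215, 205, 260 and 271 FPKM. Its groups overlapped, with a change of -0.13 ± 0.12. Complete separation of the groups, downward, was seen in Mrto4, Gart and Hspd1 only, 3 of 38 members against 1.67% of all genes, and in none upward, against 1.42%. Leaving out null replicate 1 moved the median change from -0.18 to -0.12, the largest shift from removing any 1 library here, and 37 of 38 members were then still lower. Quantile normalization gave a median of -0.12 and 37 members lower. By same-numbered pairs, null libraries 0 to 3 were lower for 33, 38, 37 and 33 members, against 62.4%, 62.8%, 44.4% and 49.1% of all genes.

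**Figure D4:**
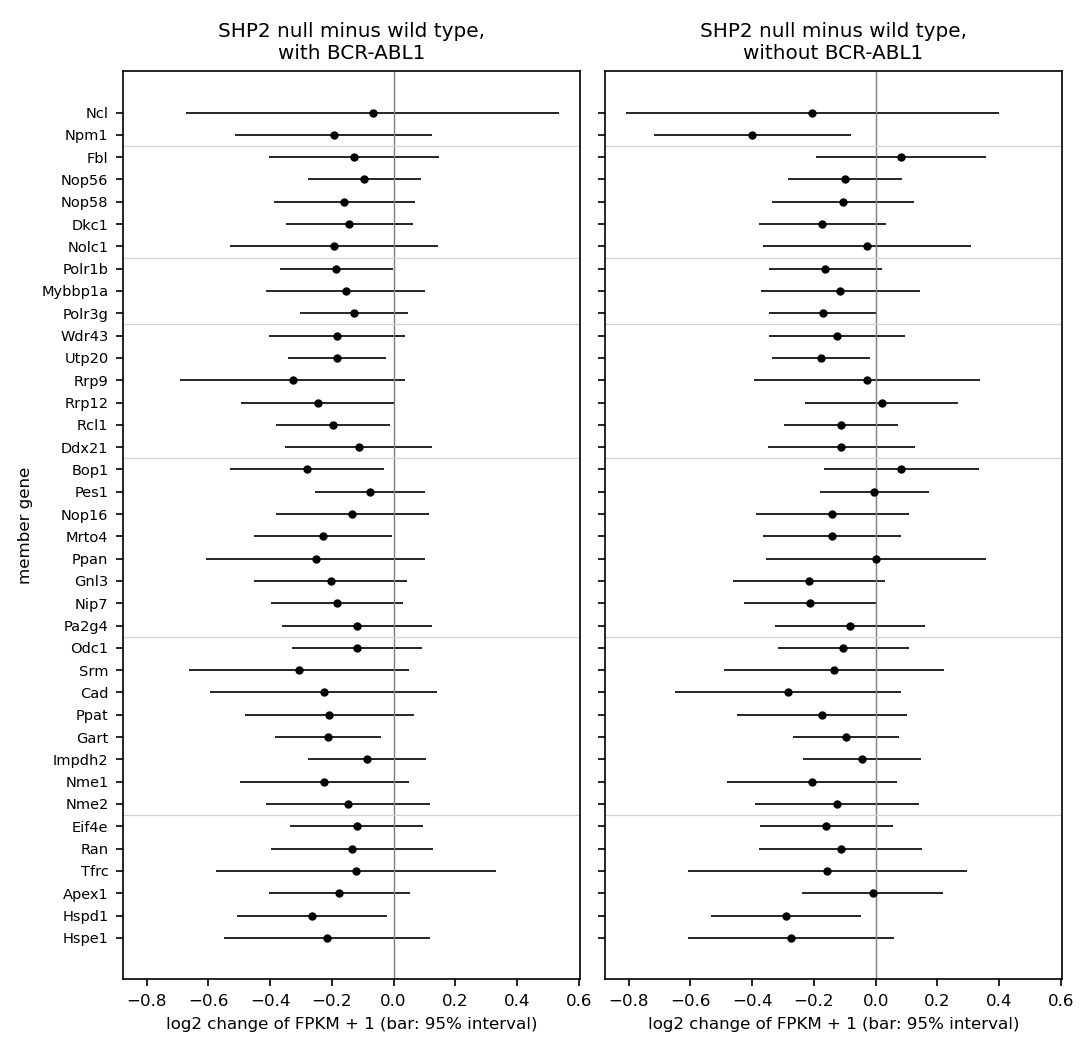
Log2 change of FPKM + 1 for each of the 38 members with its 95% interval from limma, SHP2 null minus wild type, with BCR-ABL1 on the left and without on the right (n = 4 per group). All 38 points on the left and 34 of 38 on the right lie below 0, and most intervals include 0.

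The second comparison asks the same without BCR-ABL1. There 34 of 38 members had a lower mean in SHP2-null cells, against 44.1% of all genes, and the median change was -0.12 against 0.02. None passed limma's test, where 1.54% of all genes did. At an unadjusted p below 0.05 there were 3 members lower and 0 higher, against 5.39% and 10.7% of all genes. Those 3 were Npm1, Utp20 and Hspd1. This median rested in large part on 1 library. Without null replicate 2, the library with 421 FPKM of myeloid markers, it was -0.04, and 27 of 38 members were lower; the part of those markers in the result was not tested. Without null replicate 3 it was -0.19.

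Npm1 read 1416, 1380, 1421 and 1711 FPKM in the wild-type libraries without BCR-ABL1 and 1174, 1141, 850 and 1379 FPKM in the null ones. The groups did not overlap, though the nearest libraries all but met, and the change was -0.40 ± 0.15 (95% interval -0.72 to -0.08, unadjusted p = 0.0176, adjusted p = 0.208 in limma). Polr3g also separated, at 7.36, 6.88, 6.78 and 7.76 FPKM against 6.23, 5.93, 6.19 and 6.76 FPKM. Such separation downward was thus found in 2 of 38 members, against 3.07% of all genes, and upward in none, against 6.02%. Hspd1 read 265, 257, 234 and 282 FPKM and then 225, 209, 168 and 253 FPKM, which overlap, with a change of -0.29 ± 0.11 (unadjusted p = 0.0221).

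For the remaining named members the same groups overlapped throughout. Fbl read 93.1, 117, 79.1 and 95.8 FPKM in wild-type cells, and 107, 101, 83.3 and 116 FPKM in the null group, and was among the 4 members with a higher mean log2(FPKM + 1) in null cells, with Rrp12, Bop1 and Ppan. Nop56 read 176, 172, 162 and 183 FPKM and then 182, 158, 136 and 176 FPKM. Polr1b read 21.2, 21.8, 19.3 and 21.8 FPKM and then 21.2, 20.0, 15.9 and 18.1 FPKM. Null replicate 2 was the lowest of its group for all 3 of these genes. Mybbp1a read 69.4, 78.9, 65.0 and 70.9 FPKM and then 78.2, 68.9, 49.8 and 68.1 FPKM. Ddx21 read 79.5, 79.4, 62.4 and 68.3 FPKM and then 78.0, 66.1, 54.3 and 70.4 FPKM. Pa2g4 read 152, 152, 117 and 129 FPKM and then 150, 130, 104 and 136 FPKM. In the wild-type group libraries 0 and 1 were well above 2 and 3 for Ddx21 and Pa2g4. Bop1 read 29.1, 37.3, 34.6 and 38.1 FPKM and then 35.4, 35.2, 33.5 and 43.5 FPKM. Nme2 read 340, 396, 411 and 479 FPKM and then 363, 343, 333 and 452 FPKM. Ran read 258, 255, 299 and 304 FPKM and then 248, 247, 227 and 314 FPKM. For Ran and Nme2, as for Bop1, null replicate 3 was the highest of its group.

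Whether the SHP2 effect itself differed between cells with and without BCR-ABL1 was tested as an interaction, and no member and 0.0% of all genes passed in limma, with 591 of all genes (5.79%) at an unadjusted p below 0.05. Among members, Bop1 alone was under that unadjusted limit, where 4.02% of all genes were more negative and 1.77% more positive. Its SHP2 effect was more negative with BCR-ABL1 by -0.36 ± 0.17 (95% interval -0.72 to -0.01, adjusted p = 0.839). The interaction was below 0 for 25 of 38 members, against 60.3% of all genes. The median over members was -0.02 against -0.04 over all genes, and its sign was not stable, being 0.01 under median-ratio scaling and 0.04 under quantile normalization.

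The third comparison sets BCR-ABL1 cells against cells without it, both with SHP2. It shares its wild-type libraries with the comparisons above, so these are not independent. The summed mast cell markers were lower in every BCR-ABL1 wild-type library than in every wild-type library without it, and their part in the result was not tested. Here 29 of 38 members had a lower mean with BCR-ABL1, against 40.2% of all genes, with a median of -0.07 against 0.04. By same-numbered pairs 0 to 3, 17, 38, 10 and 30 members were lower with BCR-ABL1. The shares of all genes lower were 37.7%, 50.3%, 36.7% and 47.1%. No member passed in limma, where 4.67% of all genes did, none had groups that separated, against 4.04% of all genes downward and 7.66% upward. Cad alone had an unadjusted p below 0.05, in the lower direction, where 7.01% of all genes were lower and 12.1% higher at that limit. Cad, which carries out the opening steps of pyrimidine synthesis, read 17.9, 23.8, 15.3 and 15.4 FPKM with BCR-ABL1 and 21.1, 24.8, 27.9 and 28.4 FPKM without. Its change was the largest of any member in this comparison, -0.49 ± 0.17 (95% interval -0.86 to -0.12, unadjusted p = 0.0126, adjusted p = 0.126), although BCR-ABL1 replicate 1 reached into the other range. In the null cells Cad read 15.5, 19.6, 11.6 and 14.6 FPKM with and 25.2, 24.4, 16.8 and 17.7 FPKM without BCR-ABL1, a change of -0.43 ± 0.17. The median over members was -0.11 under median-ratio scaling, and it depended on single libraries. Of the cells lacking BCR-ABL1, leaving out library 3 gave -0.02 and leaving out library 1 gave -0.05. It was -0.03 without BCR-ABL1 wild-type replicate 1.

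In SHP2-null cells, 31 of 38 members had a lower mean log2(FPKM + 1) with BCR-ABL1 than without, against 52.4% of all genes, with a median of -0.10 against -0.01. No member passed in limma, where 1.26% of all genes did, and 6 members were lower and 0 higher at an unadjusted p below 0.05, against 6.89% and 6.62% of all genes. None had groups that separated, against 3.31% of all genes downward and 3.76% upward. Rrp12 had the smallest p. It read 8.18, 9.36, 6.98 and 7.33 FPKM with BCR-ABL1 and 12.0, 11.5, 8.60 and 9.76 FPKM without, a change of -0.35 ± 0.12 (unadjusted p = 0.00843, adjusted p = 0.184 in limma). Its SHP2 wild-type libraries read 9.77, 10.9, 8.47 and 9.34 FPKM with and 10.5, 12.3, 8.86 and 9.58 FPKM without BCR-ABL1. Bop1 had a log2 difference of -0.35 ± 0.12 in the null cells. By same-numbered pairs 0 to 3, 31, 38, 9 and 36 of 38 members were lower with BCR-ABL1. The shares of all genes lower were 53.4%, 61.1%, 43.7% and 51.8%. With the replicate number as a block, Rrp12 (adjusted p = 0.00341) and Bop1 (adjusted p = 0.0393) passed in limma, both as lower. These 2 of 38 members are a share near that of all genes, 5.27%. When a correction for GC content was added to the block, Bop1 no longer passed. The median was -0.06 under quantile normalization. It was -0.03 without null replicate 3 of the cells lacking BCR-ABL1, -0.05 without BCR-ABL1 null replicate 1 and -0.17 without null replicate 2 of the cells lacking BCR-ABL1. Myeloid markers summed to 2.22 to 8.51 FPKM in the null libraries with BCR-ABL1 and 6.88 to 421 FPKM in those without. Of these markers, Lyz2 had a log2 change of -3.05 ± 0.91 (adjusted p = 0.141 in limma). The part of the myeloid markers in the result was not tested.

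Ranked by mean FPKM, not its log2, over all 4 groups, 32 of 38 members had their lowest mean in the BCR-ABL1 SHP2-null group, against 28.4% of all genes, and 27 had their highest in wild-type cells without BCR-ABL1, against 26.3%. Between these 2 groups the median member stood at 85.2% of the level in wild-type cells without BCR-ABL1. Every BCR-ABL1 null library lay below every one of those wild-type libraries for 12 members, against 7.22% of all genes, and above them for none, against 10.1%. The 12 were Npm1, Polr1b, Mybbp1a, Wdr43, Utp20, Rcl1, Mrto4, Cad, Gart, Eif4e, Hspd1 and Hspe1. No test was made of this contrast.

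The members differ in base composition, from 41.9% to 59.8% GC in the transcript, and their changes moved with it. Across the 38 genes, which are not independent replicates and share the same libraries, Pearson's r between GC and the change with BCR-ABL1 in null cells was -0.77, against -0.34 over the 10135 tested genes with a GC value. The 19 members of higher GC had a median change of -0.18 in that comparison and the other 19 a median of -0.04. For SHP2 loss, r was -0.46 with BCR-ABL1 and 0.45 without, against -0.09 and 0.29 over all genes. Libraries themselves varied in this, with rank correlations between GC and a gene's deviation from -0.46 to 0.47, and all 4 null libraries without BCR-ABL1 were positive. After a correction of each library for GC, all 38 members were still lower after SHP2 loss with BCR-ABL1, against 48.2% of all genes, with a median of -0.17. Without BCR-ABL1 all 38 were lower, against 48.5% (median -0.13). With BCR-ABL1, 34 were lower in wild-type cells, against 48.4% (median -0.11), and 33 in null cells, against 53.1% (median -0.12).

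**Figure D5:**
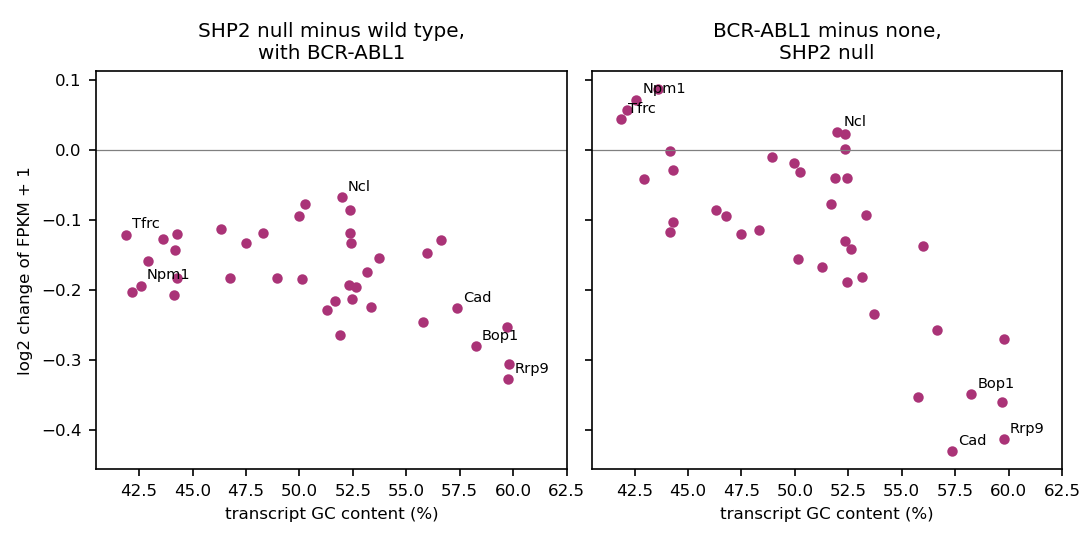
Log2 change of FPKM + 1 of each member against the GC content of its transcript, for SHP2 loss with BCR-ABL1 (left) and for BCR-ABL1 in SHP2-null cells (right), 1 point per gene. On the left all 38 points lie below 0 across the GC range. On the right 15 of the 19 members of lower GC and 16 of the 19 of higher GC lie below 0. Npm1 and Tfrc, of low GC, are among those above 0, and Cad and Rrp9, of high GC, lie lowest.

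Myc itself read 26.5, 46.9, 31.2 and 29.1 FPKM in wild-type BCR-ABL1 cells, and 29.0, 39.1, 23.1 and 27.5 FPKM in the null group. Without BCR-ABL1 it read 35.2, 48.6, 32.7 and 46.0 FPKM in wild-type cells, and 41.1, 37.2, 28.1 and 29.2 FPKM in the null group. All these groups overlapped, and Myc did not pass in any comparison, with changes of -0.16 ± 0.19 and -0.25 ± 0.19 for SHP2 loss with and without BCR-ABL1. Its changes with BCR-ABL1 were -0.29 ± 0.19 in wild-type and -0.19 ± 0.19 in null cells. Of 11 tested genes of the MYC, MAX and MXD network, 3 were lower and 8 higher after SHP2 loss with BCR-ABL1, where 57.3% of all genes were lower, and none was past the threshold in limma. Mxi1, a MAX partner that opposes MYC, was the only one at an unadjusted p below 0.05, with 2.69 ± 0.14 FPKM in wild-type BCR-ABL1 cells and 3.49 ± 0.28 FPKM (SD, n = 4) after SHP2 loss (adjusted p = 0.213). Without BCR-ABL1, SHP2 loss gave 8 lower and 3 higher, where 44.1% of all genes were lower, and again none passed. At an unadjusted p below 0.05, Mga was lower there and Mxd3 and Mxd4, which like Mxi1 pair with MAX and oppose MYC, were higher. Mxd3 read 9.31 ± 0.94 FPKM in wild-type and 13.4 ± 0.7 FPKM in null cells (SD, n = 4 per group; adjusted p = 0.0878 in limma, and 0.0240 with the replicate block). Mxd4 read 7.67 ± 1.14 and 12.1 ± 2.9 FPKM (adjusted p = 0.0890, and 0.00877 with the block), and 5.75% of all genes passed with the block. In SHP2 wild-type cells 7 of the 11 were lower with BCR-ABL1 and 4 higher, where 40.2% of all genes were lower. No gene of the 11 passed there without the block. At an unadjusted p below 0.05 in limma, Mxd3 (0.42 ± 0.13) and Mxd4 (0.51 ± 0.16) were again higher and Mnt was lower. At that limit 12.1% of all genes were higher and 7.01% lower. In SHP2-null cells 5 of the 11 were lower with BCR-ABL1 and 6 higher, where 52.4% of all genes were lower. None passed without the block. With it Mxi1 passed, as higher (adjusted p = 0.0398 in limma), where 5.27% of all genes passed.

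A wider list of 189 genes that act in the same processes, 188 of them tested, was counted in the same way. After SHP2 loss with BCR-ABL1, 168 of 188 had a lower mean, against 57.3% of all genes (median -0.12). At an unadjusted p below 0.05, 21 were lower and 0 higher, against 1.98% and 1.67% of all genes. Small-subunit factors were lower in 43 of 45, large-subunit factors in 43 of 44 and RNA exosome subunits in 14 of 14. RNA polymerase III and its factors were lower in 15 of 20. Riok2, a kinase of late small-subunit maturation, had the smallest p of the list: BCR-ABL1 cells held 16.8 ± 1.7 FPKM (SD, n = 4) with SHP2 and 13.2 ± 1.7 FPKM without (adjusted p = 0.562 in limma). Without BCR-ABL1, SHP2 loss gave 128 of 188 lower, against 44.1% of all genes (median -0.06). There 21 were lower and 4 higher (Oaz2, Gtf3c6, Ddx24 and Brf1) at an unadjusted p below 0.05, against 5.39% and 10.7%. Tex10, a factor of large-subunit maturation, came closest there, with a change of -0.32 ± 0.08 (adjusted p = 0.0566, and 0.0157 with the replicate block). With BCR-ABL1 in wild-type cells 101 of 188 were lower, against 40.2% of all genes (median -0.01), with 9 lower and 6 higher at that unadjusted limit, against 7.01% and 12.1%. In null cells 134 were lower, against 52.4% (median -0.07), with 18 lower and 2 higher (Ctps2 and Mthfd2), against 6.89% and 6.62%. None of the 188 passed the threshold in any of these comparisons or in the interaction, where 6 were lower and 0 higher at an unadjusted p below 0.05, against 4.02% and 1.77% of all genes. With the replicate block 4 of 188 passed for SHP2 loss without BCR-ABL1 (Heatr1, Tex10, Sdad1 and Nmd3), against 5.75% of all genes, and 6 for BCR-ABL1 in null cells, against 5.27%. The genes in brackets here, and Mga, Mnt, Mxd3 and Mxd4, were named after their values were seen.

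Reads of some members can be shared with near-identical sequence of other annotated genes, which makes their values uncertain. Matches were counted on both strands, and some can lie at the member's own locus. By alignment of transcripts (at least 95% identity over 200 bases), Odc1 matched 7 other annotated genes, Npm1, Nop56 and Nme2 matched 4 each, and Fbl, Pes1 and Mrto4 matched 2 each. Gart, Hspd1, Hspe1, Ddx21, Ppat, Impdh2, Nme1, Eif4e, Ran and Apex1 matched 1 each. Nme1 and Nme2 share a readthrough transcript.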

How the data were processed

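Polyadenylated RNA of 16 pre-B libraries (4 groups of 4) was sequenced in paired reads of 100 cycles from a strand-marking kit, per the labels' protocols. The deposited FPKM are the authors' values; Bowtie, Cufflinks and the mm10 (GRCm38) build are named in the submitters' processing notes, with no version or setting. Entries of a repeated symbol (733 of 23758) were summed. Sequencing depth is unknown, so no counting interval can be given. Values were tested as log2(FPKM + 1) with limma 3.58.1 (R 4.3.3), a trended prior variance and 1 fit of 4 group means, for genes of at least 1 FPKM in at least 4 libraries, two-sided, at an adjusted p below 0.05. A fold on this scale understates the change of low genes. The procedure was tested on simulated data with independent noise and with changes larger than that of any member here. That test therefore does not cover changes as small as those of the members. Members and lists were chosen with earlier results of these data known. Genes given by library were those with the smallest p and the highest mean in each role, and Myc; Mrto4, Gart, Polr3g, Ncl and Tfrc were added after their values were seen. Scores carry no test. Same-numbered libraries deviated together (r from 0.19 to 0.78) in all comparisons except BCR-ABL1 in SHP2 wild-type cells, where 1 pair had r = 0.05. Some libraries correlated better with a differently numbered library of the group compared. These were numbers 2 and 3 for SHP2 loss with BCR-ABL1 and for BCR-ABL1 in wild-type cells. They also included number 3 for SHP2 loss without BCR-ABL1 and number 2 for BCR-ABL1 in null cells. Whether the numbers mark pairs is therefore not settled, nor are results with the block. The protocol describes loading sets of 1 library per genotype but does not tie these sets to the numbers. Alternatives were another pseudocount, 2 other filters, 2 scalings, a replicate block, separate fits, each library left out and a GC correction, the last chosen after seeing the data.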

Additional observations from a re-analysis of the deposited data

Results flagged for a closer look

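Of 88 sets of 4 libraries examined for members given by library and for the role averages, 5 had 1 library far from its 3 companions by Dixon's criterion; chance alone gives about 1 in 20. Npm1 read 1711 FPKM in replicate 3 of the wild-type cells without BCR-ABL1, against 1380 to 1421 FPKM in the other 3. Polr1b read 18.6 FPKM in replicate 0 of the BCR-ABL1 SHP2-null cells, against 15.9 to 16.2 FPKM. Nop56 read 145 FPKM in replicate 1 of that group, against 163 to 166 FPKM, and the same library had the lowest snoRNP average, -0.19 against -0.07 to -0.05. The average of the nucleolar organisers was -0.61 in replicate 2 of the SHP2-null cells without BCR-ABL1, against -0.01 to 0.11 in its companions; that library is also the one with 421 FPKM of myeloid markers, whose part was not tested.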

How the results depend on the processing

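The median member change kept its sign under every alternative in the 4 comparisons between groups. Leaving out 1 library at a time gave -0.21 to -0.12 for SHP2 loss with BCR-ABL1, -0.19 to -0.04 without, -0.09 to -0.02 for BCR-ABL1 in wild-type and -0.17 to -0.03 in null cells, and -0.10 to 0.03 for the interaction. Counts of all genes passing were less stable. For SHP2 loss with BCR-ABL1 the 32 became 11 with a mean of at least 5 FPKM, 20 with only the groups compared, 56 with GC correction and the replicate block, and 19 to 29 with 1 library left out. Without BCR-ABL1 the 157 became 70, 33, 613 and 72 to 164 in the same order, and 587 with the block alone. For BCR-ABL1 in wild-type cells the 477 became 186 with that filter, 1231 with the block, 1655 with GC correction and the block, and 225 to 477 with 1 library left out. In null cells the 129 became 33, 538, 533 and 48 to 171 in the same order, and 28 with only the groups compared. The interaction gave 3 genes with no filter and 0 to 1 with 1 library left out. Of members, the block alone made 1 pass for BCR-ABL1 in wild-type cells (Cad, adjusted p = 0.0419), against 12.1% of all genes. In null cells it made 2 pass, against 5.27%. In the wild-type comparison same-numbered libraries deviated together in 3 of 4 pairs (r from 0.34 to 0.64) and 1 pair had r = 0.05. There 9 of the 188 other genes of these processes, and Mxd3 and Mxd4 (both higher, adjusted p = 0.0278 and 0.00954), also passed with the block. GC correction with the block gave 3 members for BCR-ABL1 in wild-type cells (Polr1b, Mybbp1a and Cad), where 1655 of the 10210 genes passed. It gave 1 in null cells (Rrp12), where 533 of all genes passed, and 1 for SHP2 loss without BCR-ABL1 (Hspd1), where 613 did. In every other alternative and comparison 0 members passed. The causes were not tested. Among all genes passing for SHP2 loss without BCR-ABL1, 104 of 157 were higher, against 86 of 160 under quantile normalization; for BCR-ABL1 in wild-type cells 301 of 477 were higher, against 235 of 447 under median-ratio scaling and 227 of 427 under quantile normalization. Depth is unknown, so low members such as Polr3g cannot be given a counting error.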

Other observations

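In the same-numbered pairs, the member average was lower in SHP2-null than in wild-type BCR-ABL1 cells by -0.16, -0.21, -0.22 and -0.11 for numbers 0 to 3. Without BCR-ABL1 the differences were 0.01, -0.18, -0.28 and -0.06.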
